A study of Mus musculus with 24 samples.

Results

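The 4 Argonaute genes Ago1, Ago2, Ago3 and Ago4 were followed across 2 enriched male germ cell fractions and 3 genotypes. They were chosen by name: 4 of the 55536 rows of the count table carried an Ensembl identifier that GENCODE release M21 assigns to one of these symbols. Bulk poly(A) RNA-seq gave 24 libraries, of which 21 entered the comparisons, and the other 3, marked as outliers in the labels, are given only as an alternative. The groups were 4 wild-type (Ago413+/+), 3 heterozygous (Ago413+/-) and 3 null (Ago413-/-) libraries of pachytene/diplotene spermatocytes, and 3, 4 and 4 such libraries of round spermatids. Each library came from the pooled testes of 2 to 5 male mice of 1 genotype, aged 10 to 15 weeks and kept on a C57BL/6J background. All genotypes came from crosses between heterozygotes of 1 targeted line, which was made in 129 embryonic stem cells with MICER vectors and recombined by Sox2-cre, so the deletion is present in every cell of the mouse. The fractions were enriched to at least 70% purity and not sorted, which means that a lower count can stand for fewer cells of a type or for less RNA per cell, and these cannot be told apart here. Libraries held 12825105 to 29749058 counts.

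Argonaute proteins bind microRNAs and other small RNAs and use them as guides to complementary transcripts. The bound mRNA is then repressed through GW182 scaffold proteins, which bring deadenylases and decapping factors. AGO2 is the member of this clade known for cutting its targets in mammals, and it lies apart from the others in the genome. Pachytene and diplotene spermatocytes are in the long prophase of the first meiotic division, when the sex chromosomes are silenced, and round spermatids are the haploid cells that follow.

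Ago1, Ago3 and Ago4 lie in tandem on the minus strand of chromosome 4 (mm10), in the transcriptional order Ago4, Ago1, Ago3. Ago4 (ENSMUSG00000042500) spans chr4:126489541-126533472, Ago1 (ENSMUSG00000041530) spans chr4:126435012-126468583 and Ago3 (ENSMUSG00000028842) spans chr4:126331704-126429556. Ago2 (ENSMUSG00000036698), which the deletion does not touch, is on chromosome 15 at chr15:73095844-73184935. Per the study's methods, the deletion ends lie within exon 15 of Ago4 and exon 6 of Ago3, and the mutant chromosome still makes mRNA from both genes with premature stop codons near the junction. The 2 end exons are coding exons of 135 bp each and are shown because they mark where the counted sequence of each gene stops or starts on the deleted chromosome. Both are given on the minus strand from the GENCODE M21 transcripts Ago4-201 and Ago3-201, in lower case throughout because the break within them is not stated. Ago4 exon 15 is at chr4:126506744-126506878 and Ago3 exon 6 at chr4:126376907-126377041.
Ago4 exon 15: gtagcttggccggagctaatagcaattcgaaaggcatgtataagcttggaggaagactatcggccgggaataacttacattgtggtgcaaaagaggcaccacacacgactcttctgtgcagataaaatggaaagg
Ago3 exon 6: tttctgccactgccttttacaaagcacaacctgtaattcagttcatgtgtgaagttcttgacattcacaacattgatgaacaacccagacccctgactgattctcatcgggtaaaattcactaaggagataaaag

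The interval between these exons measured 130.0 kb and held all of Ago1, the 3′ end of Ago4 and the 5′ end of Ago3. With the end exons counted in, the deleted chromosome kept exons 1 to 15 of Ago4, which are 2854 bp or 41.1% of its merged exon length of 6947 bp. It kept exons 6 to 19 of Ago3, which are 15175 bp or 91.6% of 16571 bp. Ago1 kept none of its 8120 bp of exon. The Ago4 start region therefore remained on the deleted chromosome, while the start regions of Ago1 and Ago3 did not.

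**Figure D1:**
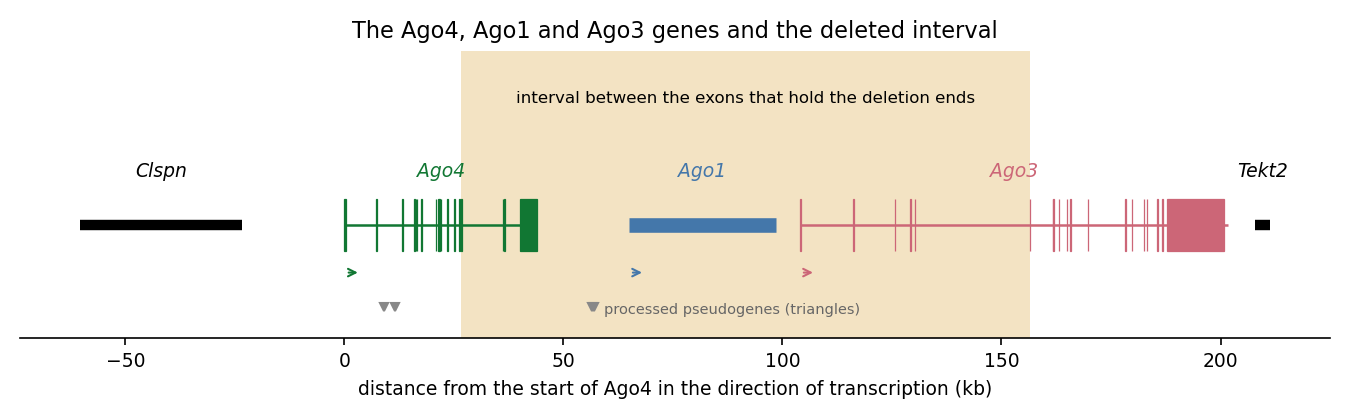
The Ago4, Ago1 and Ago3 genes drawn to scale by distance in kb from the start of Ago4, with exons of Ago4 and Ago3 as boxes, Ago1 and the neighbours Clspn and Tekt2 as bars and processed pseudogenes as triangles. The shaded interval of 130.0 kb runs from exon 15 of Ago4 to exon 6 of Ago3 and takes in the whole of Ago1.

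The start region that was kept and one that was lost are shown in full, as RefSeq windows (GRCm38.p6, minus strand) from 250 bases before to 50 bases after the start, with capitals marking the GC box letters GGGCGG or their complement CCGCCC. The Ago4 window is chr4:126533409-126533708 and the Ago3 window is chr4:126429493-126429792.
Ago4 promoter: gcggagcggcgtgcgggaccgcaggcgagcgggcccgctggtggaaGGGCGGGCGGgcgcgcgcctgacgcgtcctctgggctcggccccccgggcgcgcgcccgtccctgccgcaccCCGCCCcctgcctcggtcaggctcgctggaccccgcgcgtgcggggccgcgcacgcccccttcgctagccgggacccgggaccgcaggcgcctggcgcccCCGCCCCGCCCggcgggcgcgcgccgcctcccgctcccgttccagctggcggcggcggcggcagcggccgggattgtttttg
Ago3 promoter: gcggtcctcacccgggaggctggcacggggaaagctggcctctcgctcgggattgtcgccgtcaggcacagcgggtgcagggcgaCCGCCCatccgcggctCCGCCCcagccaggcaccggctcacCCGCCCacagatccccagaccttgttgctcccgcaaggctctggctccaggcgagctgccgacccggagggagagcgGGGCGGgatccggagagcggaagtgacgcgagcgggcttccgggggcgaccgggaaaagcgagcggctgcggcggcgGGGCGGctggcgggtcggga

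The Ago4 window held 54 CG dinucleotides, the Ago3 window 37 and the Ago1 window 31, against a median of 7 over 32851 windows of the same length. The GC box letters matched 5 times in Ago4, with overlapping matches counted, 5 times in Ago3 and 2 times in Ago1, and 35.7% of all windows held at least 1 match on either strand. TATAAA was not found in the 3 windows and was in 13.6% of all windows. CCAAT was found 1 time, in the Ago1 window, and was in 37.4% of all windows. These are letter matches in a fixed window and not binding sites.

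In wild-type cells Ago4 was the most abundant Argonaute mRNA per length in both fractions. Levels are given as CPM, which are counts scaled to a common library total with TMM on 1 scale for all 21 libraries, and genes are set against each other only as CPM per kb of merged exon. In wild-type spermatocytes Ago4 stood at 4.62 ± 1.86 CPM per kb (SD, n = 4), 7.56 times the mean of Ago2 at 0.611 ± 0.316, with no overlap of the libraries. Ago3 at 0.424 ± 0.174 and Ago1 at 0.410 ± 0.0770 CPM per kb followed, and both pairs of neighbours in this order, Ago2 with Ago3 and Ago3 with Ago1, overlapped in range, although Ago2 was above Ago3 within each of the 4 libraries. In wild-type round spermatids Ago4 stood at 2.43 ± 0.476 CPM per kb (SD, n = 3), 5.62 times Ago1 at 0.432 ± 0.107. Ago2 at 0.369 ± 0.110 and Ago3 at 0.275 ± 0.0711 CPM per kb came next, again with overlapping ranges and with Ago2 above Ago3 within each of the 3 libraries. Ago4 therefore led without overlap in both fractions, while the levels of the other 3 lay within the spread of the libraries. In the study's single-cell data wild-type Ago1 was confined to spermatogonia. Summed spermatogonial markers stood at 40.1 to 50.7 CPM in the wild-type spermatocyte libraries and at 66.1 to 72.9 CPM in the wild-type round spermatid libraries. Their part in the wild-type Ago1 levels was not tested.

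The order differed between genotypes. In heterozygotes Ago3 moved to the second place, at 1.83 ± 0.944 CPM per kb in spermatocytes (SD, n = 3) and 1.23 ± 0.208 in round spermatids (SD, n = 4), above Ago2 in every library without overlap of the ranges. In null spermatocytes Ago3 was first at 3.91 ± 1.48 CPM per kb (SD, n = 3) and lay above Ago4, at 1.77 ± 0.488, in all 3 libraries when divided by full exon length. Per kb of exon that the deletion keeps, Ago3 was 0.756, 1.01 and 1.15 times Ago4 in these libraries, so it did not lead in all of them. In null round spermatids Ago3 at 1.80 ± 0.933 and Ago4 at 1.60 ± 0.249 CPM per kb (SD, n = 4) were not separated, with Ago3 higher in 2 of 4 libraries on full exon length. Per kb of exon kept, Ago4 was higher in all 4, at 3.91 against 1.97 CPM per kb. Ago2 stayed below both in all 7 null libraries.

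Ago1, whose gene is removed whole, gave the check of the genotype labels. In spermatocytes its level was 2.99, 3.05, 4.27 and 3.01 CPM in the 4 wild-type libraries, from 41 to 96 counts each. It was 3.22, 3.75 and 1.71 CPM in the 3 heterozygous libraries and 0 counts in all 3 null libraries. Heterozygous and wild-type libraries overlapped, and the null libraries stood apart from both. In round spermatids the wild-type libraries held 3.21, 4.49 and 2.82 CPM, the heterozygous libraries 3.38, 2.52, 2.08 and 2.23 CPM, and the 4 null libraries 0 counts. A count of 0 allows up to 3 counts per library, which sets the null level at least 23.5-fold lower than wild-type in spermatocytes and at least 21.6-fold lower in round spermatids. Both differences were called with edgeR (adjusted p = 0.000522 and 2.58e-05), where called means an adjusted p under 0.05 with an absolute log2 fold change above 0.5. Null libraries were also called lower than heterozygous ones (edgeR adjusted p = 0.00238 and 0.000168), where Ago1 was the 1 member of 4 called in each fraction against 0.00514% of tested genes in spermatocytes and 0.00518% in round spermatids. With only these 2 groups in the fit, the spermatocyte call was lost (edgeR adjusted p = 0.222), with 0 of 18762 genes called and 546 at an unadjusted p under 0.05. The call held in round spermatids (edgeR adjusted p = 0.00795) and in all fits that left out 1 library.

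The heterozygous level of Ago1 was set against the value that loss of 1 of 2 copies would give in proportion, a log2 fold change of -1. In spermatocytes the log2 fold change against wild-type was -0.15, with a 95% interval of -0.89 to 0.59 that did not reach -1 (edgeR adjusted p = 0.818). The mean was 86.8% of wild-type. Summed spermatogonial markers stood at 69.5 to 93.4 CPM in the same heterozygous libraries and at 40.1 to 50.7 CPM in wild-type, without overlap, and their part in the Ago1 level was not tested. In round spermatids it was -0.47, with an interval of -1.06 to 0.12 that took in both 0 and -1 (edgeR adjusted p = 0.612), and the mean was 72.7% of wild-type. The counts behind these levels were low, 32 to 86 per heterozygous spermatocyte library and 37 to 57 per heterozygous round spermatid library.

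Ago3, which loses its first 5 exons, rose in null cells of both fractions. In spermatocytes the wild-type libraries held 6.07, 5.80, 11.3 and 4.92 CPM, the heterozygous libraries 37.7, 40.8 and 12.3 CPM and the null libraries 38.2, 86.4 and 69.7 CPM. Every heterozygous and every null library lay above every wild-type library. The heterozygous and null groups overlapped. In round spermatids the wild-type libraries held 3.91, 5.92 and 3.86 CPM, the heterozygous libraries 17.3, 25.3, 19.9 and 19.2 CPM and the null libraries 16.9, 16.6, 46.8 and 39.2 CPM. The same separation from wild-type was seen, and the null libraries fell into a lower and a higher pair.

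The log2 fold change of Ago3 in null against wild-type was 3.23 (SE 0.41) in spermatocytes and 2.68 (SE 0.38) in round spermatids, with edgeR adjusted p = 0.00826 and 0.0108. The call in spermatocytes was lost without wild-type replicate 1 (edgeR adjusted p = 0.0737), wild-type replicate 2 (adjusted p = 0.0735) or null replicate 2 (adjusted p = 0.0662), with log2 fold changes from 2.97 to 3.60 over the 7 fits that left out 1 library. In round spermatids it was lost without wild-type replicate 1 (edgeR adjusted p = 0.185) or replicate 4 (adjusted p = 0.112), with log2 fold changes from 2.38 to 2.95. Together with Ago1, 2 of 4 members were called in each fraction, against 0.0411% of tested genes in spermatocytes and 0.0518% in round spermatids. DESeq2 called 3 of 4 members in spermatocytes, Ago1, Ago3 and Ago4, against 15.6% of tested genes. In round spermatids it called Ago3 and Ago4, against 3.64% of tested genes, and gave Ago1 no adjusted p.

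On the log2 scale the heterozygous value of Ago3 lay nearer to the null value than to wild-type. In CPM the heterozygous mean was 0.844 times the midpoint of the wild-type and null means in spermatocytes and 1.19 times in round spermatids. On that scale it lay nearer to wild-type in spermatocytes and nearer to null in round spermatids. Heterozygous spermatocytes stood 4.31-fold and null spermatocytes 9.22-fold above the wild-type mean, and in round spermatids these values were 4.48-fold and 6.55-fold. The log2 fold change of heterozygous against wild-type was 2.17 (SE 0.40, 95% interval 1.31 to 3.03) in spermatocytes and 2.16 (SE 0.37, 95% interval 1.36 to 2.95) in round spermatids. These intervals lay well above 0, yet over all genes the edgeR adjusted p was 0.124 and 0.147. With edgeR 0 of 4 members were called in heterozygotes of either fraction, against 0.0257% of tested genes in spermatocytes and 0.0207% in round spermatids. At an unadjusted p under 0.05 there were 2 members in spermatocytes, Ago3 and Ago4, and 1 in round spermatids, Ago3, against 24.6% and 8.88% of all tested genes. DESeq2 called Ago3 alone in both fractions (adjusted p = 0.000395 and 5.14e-06), against 6.31% and 0.0363% of tested genes. In spermatocytes edgeR called Ago3 as well without wild-type replicate 5 (adjusted p = 0.0206) or heterozygous replicate 3 (adjusted p = 0.0124). The heterozygous and null comparisons share their wild-type libraries.

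Fitted as a trend over 0, 1 and 2 deleted copies, Ago3 rose by a log2 of 1.63 per copy in spermatocytes (SE 0.22, edgeR adjusted p = 0.0320) and by 1.25 per copy in round spermatids (SE 0.24, edgeR adjusted p = 0.0484). It was the 1 member of 4 called in each, against 0.0154% and 0.0673% of tested genes. The number of genes called behind these shares rested on single libraries. The 3 genes in spermatocytes became 2048 without wild-type replicate 5, 1349 without heterozygous replicate 3, 1175 without null replicate 2, 1 without wild-type replicate 1 or null replicate 3 and 0 without wild-type replicate 2 or 4 (4380 and 3920 at an unadjusted p under 0.05). The 13 genes in round spermatids became 0 to 3 in 8 of 11 such fits and 15 or 16 in the other 3. The calls of Ago3 lay close to the threshold. In spermatocytes the call was lost without wild-type replicate 1 (edgeR adjusted p = 0.191), replicate 2 (adjusted p = 0.141) or replicate 4 (adjusted p = 0.0994), or without null replicate 3 (adjusted p = 0.135). In round spermatids 7 of 11 fits with 1 library left out lost the call. These left out wild-type replicate 1 (edgeR adjusted p = 0.185), replicate 2 (0.123) or replicate 4 (0.101), heterozygous replicate 1 (0.0504) or replicate 3 (0.0573), or null replicate 3 (0.0821) or replicate 4 (0.119). The null step over the heterozygote was 1.06 (SE 0.42, edgeR adjusted p = 0.974) in spermatocytes and 0.53 (SE 0.31, adjusted p = 0.687) in round spermatids, and neither was called. With 1 library left out this step ranged from 0.68 without heterozygous replicate 3 to 1.34 without heterozygous replicate 2 in spermatocytes, and from 0.23 without null replicate 3 to 0.76 without null replicate 1 in round spermatids. The direction of the step in round spermatids turned within a part of the libraries, as given in the next paragraph.

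The null libraries differed among themselves by library number, a number in the column headers whose meaning is not given in the sources used here. The split at 60 was set after the data were seen. Among libraries numbered up to 60, Ago3 averaged 16.8 CPM in 2 null round spermatid libraries against 4.92 CPM in 2 wild-type ones, a 3.41-fold difference. Above 60 it averaged 43.0 CPM in 2 null libraries against 3.86 CPM in 1 wild-type library, an 11.1-fold difference. The direction against wild-type was the same in both sets and the size was not. In spermatocytes the corresponding folds were 4.94 with 1 null library and 15.9 with 1 wild-type library. Against heterozygotes the direction differed between the sets in round spermatids. Up to 60 the null libraries, at 16.6 to 16.9 CPM, lay below the 3 heterozygous libraries at 17.3 to 25.3 CPM. Above 60 the null mean of 43.0 CPM stood against 19.2 CPM in 1 heterozygous library. The rise of null over heterozygous round spermatids was thus seen only above 60. With the split as a term of the fit the log2 fold change of null against wild-type was 3.12 in spermatocytes (edgeR adjusted p = 0.146) and 2.45 in round spermatids (edgeR adjusted p = 0.0251).

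**Figure D2:**
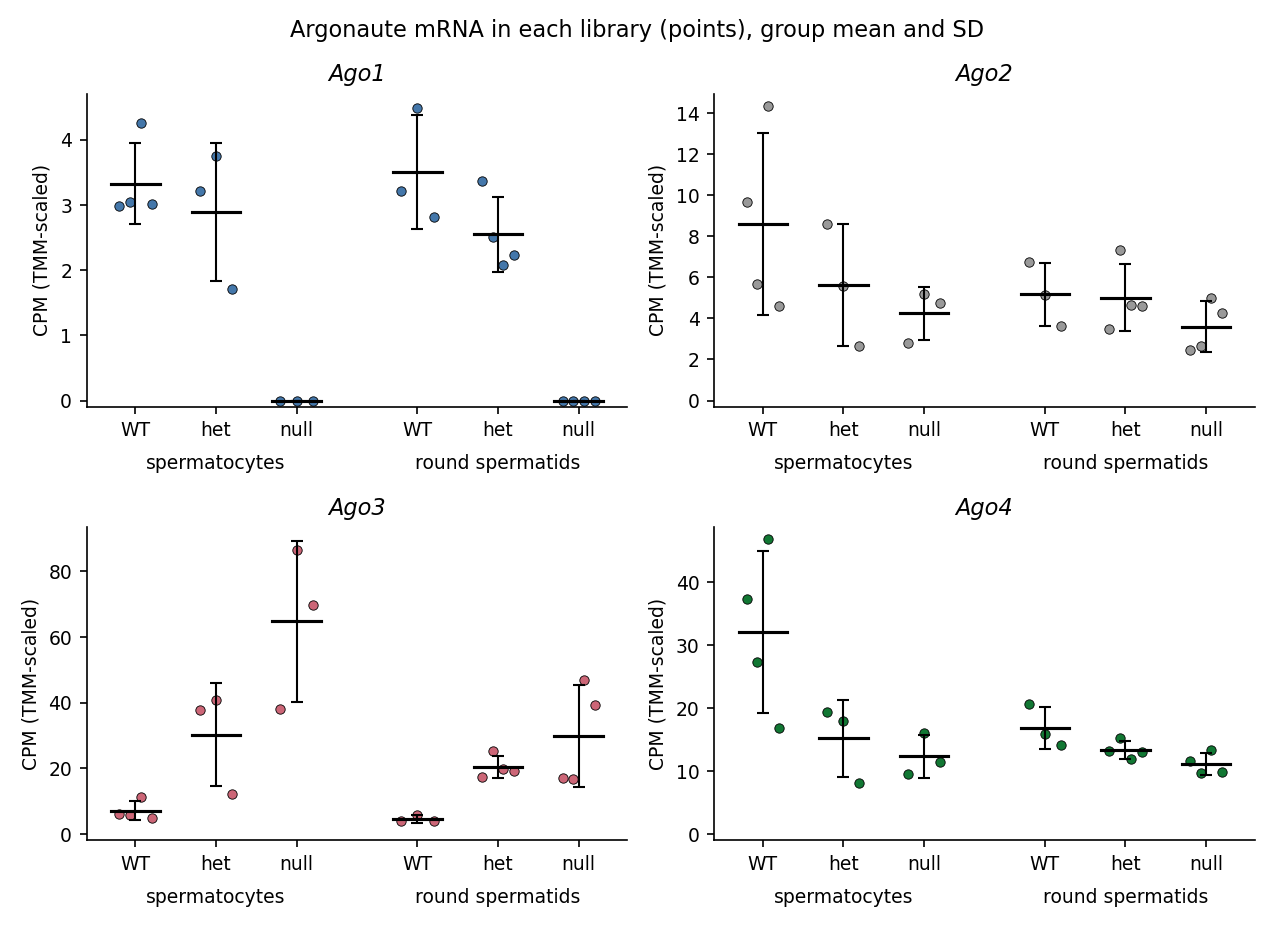
TMM-scaled CPM of each Argonaute gene in each of the 21 libraries (points), by genotype and fraction, with the group mean as a horizontal bar and the SD as a vertical bar. Ago1 is at 0 in the 7 null libraries, Ago3 is higher in every heterozygous and null library than in wild-type, and each panel has its own axis.

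Ago4, which loses its last exons, had lower counts in null cells, without passing the edgeR threshold, and the deleted chromosome keeps 41.1% of its exon length. In spermatocytes the wild-type libraries held 37.4, 27.4, 46.8 and 16.8 CPM, the heterozygous libraries 19.5, 18 and 8.16 CPM and the null libraries 9.50, 16.1 and 11.4 CPM. No null library reached the lowest wild-type library, by a margin of less than 1 CPM. In round spermatids the wild-type libraries held 20.6, 15.9 and 14.2 CPM, the heterozygous libraries 13.2, 15.2, 11.8 and 13.0 CPM and the null libraries 11.6, 9.67, 13.4 and 9.90 CPM. The null and wild-type groups again did not overlap, and the heterozygotes overlapped both.

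The log2 fold change of Ago4 in null against wild-type was -1.36 in spermatocytes (SE 0.36, 95% interval -2.14 to -0.58, edgeR adjusted p = 0.0608) and -0.63 in round spermatids (SE 0.17, 95% interval -0.99 to -0.27, edgeR adjusted p = 0.0884). DESeq2 called both (adjusted p = 0.00806 and 0.0171). In heterozygotes it was -1.02 in spermatocytes (SE 0.36, edgeR adjusted p = 0.135) and -0.33 in round spermatids (SE 0.17, edgeR adjusted p = 0.575). Without wild-type replicate 5 of spermatocytes, edgeR called both the null difference (-1.57, adjusted p = 0.00861) and the heterozygous one (-1.23, adjusted p = 0.0309). The null mean was 38.4% of wild-type in spermatocytes and 66% in round spermatids. Split by library number, it was 0.255 times wild-type up to 60, with 1 null library, and 0.815 times above 60, with 1 wild-type library, in spermatocytes, and 0.584 and 0.821 times in round spermatids. Per kb of exon kept, it was 4.31 against 4.62 CPM per kb in spermatocytes and 3.91 against 2.43 in round spermatids, so the direction turned in round spermatids. With the fractions fitted together and their libraries not paired, the null effect differed by 0.78 between them (95% interval -0.08 to 1.64, edgeR adjusted p = 0.807).

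Ago2, the member outside the deletion, was not called in any comparison of genotypes with edgeR or DESeq2, although without the filter on low counts edgeR called it lower in null spermatocytes (adjusted p = 0.0467). Its wild-type spermatocyte libraries held 9.69, 5.65, 14.4 and 4.61 CPM, the heterozygous libraries 8.60, 5.58 and 2.67 CPM and the null libraries 2.79, 5.19 and 4.75 CPM, and the groups overlapped. In round spermatids the ranges were 3.65 to 6.73 CPM in wild-type, 3.49 to 7.32 CPM in heterozygous and 2.47 to 5.00 CPM in null libraries. The log2 fold change in null against wild-type was -0.99 in spermatocytes (95% interval -1.93 to -0.05, edgeR adjusted p = 0.148) and -0.55 in round spermatids (95% interval -1.23 to 0.13, edgeR adjusted p = 0.362). The spermatocyte value ranged from -1.20 to -0.58 with each library left out in turn, nearest to 0 without wild-type replicate 4 (edgeR adjusted p = 0.432). Within the libraries numbered up to 60 the null mean was 0.282 times wild-type in spermatocytes and 0.431 times in round spermatids, while above 60 it was 1.08 and 1.27 times, so the direction did not hold within both sets.

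**Figure D3:**
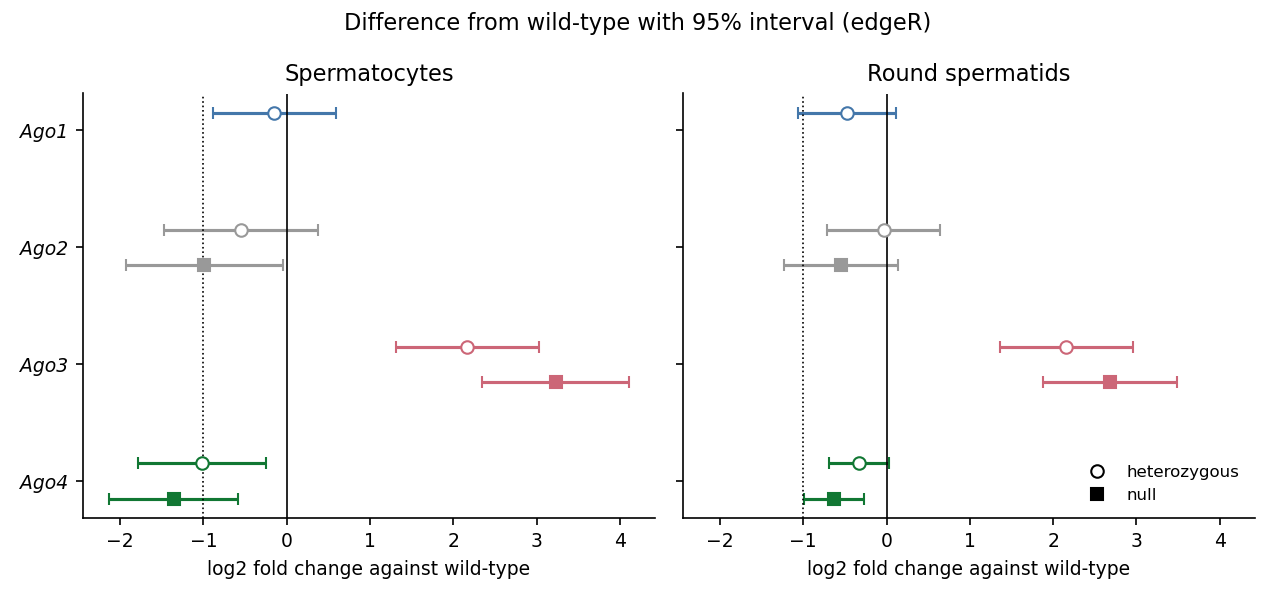
Log2 fold change against wild-type for heterozygous (open circles) and null (filled squares) libraries in each fraction, with the 95% interval from the edgeR fit as a bar. The solid line is no difference and the dotted line at -1 is 1 of 2 copies; Ago3 lies right of 0 throughout, and the null value of Ago1 is left out because all null libraries held 0 counts.

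Germ cell markers moved with genotype as well. The 10 spermatocyte markers listed for this work, among them Sycp3 of the synaptonemal complex and the transcription factor Mybl1, were all higher in wild-type spermatocytes than in wild-type round spermatids, and the 10 round spermatid markers were all lower. The summed spermatocyte markers stood at 2914 to 3887 CPM in wild-type spermatocytes and at 2045 to 2856 CPM in null spermatocytes, without overlap, and at 2390 to 2669 CPM in heterozygous spermatocytes, also below every wild-type library. Summed Sertoli cell markers stood at 164 to 451 CPM in wild-type and at 97.0 to 182 CPM in null spermatocytes. Summed spermatogonial markers stood at 48.5 to 79.7 CPM in null spermatocytes, which overlapped both other genotypes. Leydig cell, macrophage and peritubular myoid markers summed to 10.1 CPM or less in every wild-type and null spermatocyte library, with Leydig cell markers up to 22.8 CPM in heterozygous ones, and 3 of 4 erythrocyte markers were at 0 in every wild-type one. In round spermatids the summed spermatocyte markers stood at 2255 to 2516 CPM in wild-type and 1863 to 2068 CPM in null libraries, again without overlap, while the summed round spermatid markers overlapped between these genotypes. The part of these shifts in the heterozygous and null values of Ago2 and Ago4 was not tested. For all members together, 3 of 4 did not overlap between null and wild-type in each fraction, against 28.0% of tested genes in spermatocytes and 19.4% in round spermatids. For heterozygotes 1 of 4, Ago3, did not overlap, against 17.6% and 9.81%.

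Between the fractions, Ago4 changed in wild-type cells. It was lower in round spermatids than in spermatocytes by a log2 difference of -0.92, with SE 0.30 and an edgeR adjusted p of 0.0241. Ago4 was the 1 member of 4 called, against 24.2% of tested genes, a share near the background. Spermatocyte and round spermatid libraries with consecutive numbers deviated together, at a correlation above 0.1, in 8 of 9 pairs and in all 3 wild-type pairs. Fitted as pairs, Ago4 stayed called (-0.93, edgeR adjusted p = 0.0127) and Ago2 was called lower in round spermatids as well (-0.83, edgeR adjusted p = 0.0480). The call was lost without spermatocyte wild-type replicate 1 (edgeR adjusted p = 0.0638) or replicate 4 (adjusted p = 0.110), or without round spermatid wild-type replicate 2 (adjusted p = 0.0866) or replicate 4 (adjusted p = 0.103), and with the outlier libraries added back (adjusted p = 0.0673). In heterozygotes 0 of 4 members were called with edgeR or DESeq2, against 8.89% of genes called by edgeR and 2286 of 20404 by DESeq2. The 1814 genes called by edgeR ranged from 962, without round spermatid heterozygous replicate 1 or 4, to 2329 with 1 library left out, and became 0 with the outlier libraries (3471 at an unadjusted p under 0.05). At an unadjusted p under 0.05 there were 0 members by edgeR, against 23.6% of tested genes. In null cells Ago3 was lower in round spermatids by a log2 difference of -1.11, with SE 0.38 and an edgeR adjusted p of 0.0473, the 1 of 3 members that could be compared, against 17.1% of tested genes. The 3498 genes behind that share ranged from 1248 without null spermatocyte replicate 3 to 4129 with 1 library left out. All 3 null pairs of consecutive numbers also deviated together, Ago3 was lower in round spermatids in each pair, and fitted as pairs it stayed called (-0.97, edgeR adjusted p = 0.0242). Without pairs, the call was lost without null spermatocyte replicate 2 (edgeR adjusted p = 0.216) or replicate 3 (adjusted p = 0.156), or without null round spermatid replicate 1 (adjusted p = 0.144) or replicate 2 (adjusted p = 0.142). The null effect itself was not shown to differ between fractions, in a fit that did not use the pairs of consecutive numbers. A paired fit of this difference was not run. For Ago3 the difference of effects was -0.51 (95% interval -1.69 to 0.68, edgeR adjusted p = 0.866), and 0% of tested genes were called by edgeR, with 1215 of 20404 genes at an unadjusted p under 0.05 and 0 called by DESeq2.

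Shares within a library do not depend on depth or on scaling between libraries. As a share of the summed CPM per kb, Ago4 made up 79.1%, 77.7%, 75.1% and 70.9% of the Argonaute total in the wild-type spermatocyte libraries and 35.3%, 29.3% and 26.5% in the null ones. Ago3 made up 5.39%, 6.91%, 7.60% and 8.69% in wild-type and 59.5%, 66% and 68.1% in null. On full exon length Ago3 was the largest part in all 3 null libraries. Per kb of exon kept, Ago3 made up 41.6%, 48.7% and 51.5% and Ago4 55.1%, 48.2% and 44.7% of the null totals, so which was larger differed between libraries. The difference of means was 57.4 percentage points for Ago3 and -45.3 for Ago4, each with exact permutation p = 0.0571, the smallest that 4 against 3 libraries allow. The adjusted p over the 20 share tests was 0.0952, also by exact permutation, so the design could not pass 0.05.

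In round spermatids the share of Ago3 was 5.80%, 10.0% and 8.07% in wild-type, 28.9%, 33.6%, 34.4% and 31.8% in heterozygous and 35.6%, 38.8%, 55.3% and 57.7% in null libraries. The share of Ago4 was 72.7%, 64.1% and 70.8% in wild-type, 52.7%, 48.1%, 48.8% and 51.6% in heterozygous and 58.3%, 53.8%, 37.7% and 34.8% in null libraries. The heterozygous libraries were tight and the null libraries fell into 2 pairs. Per kb of exon kept, the null share of Ago3 was 20.8% to 40.6% and that of Ago4 54.6% to 75.9%, which overlapped wild-type. In heterozygous spermatocytes Ago3 made up 37.4%, 41.7% and 32.1% and Ago4 46.0%, 43.8% and 50.7%. Ago2 made up 9.78% ± 1.43 (SD, n = 4) of the total in wild-type spermatocytes and 5.10% ± 0.399 (SD, n = 3) in null, and 10.4% ± 1.37 (SD, n = 3) against 6.96% ± 0.589 (SD, n = 4) in round spermatids. These shares of Ago2 did not overlap between null and wild-type in either fraction, with the same exact permutation p = 0.0571. A share also falls when the rest of the total rises, so this does not by itself show less Ago2 mRNA. Above library number 60, null Ago2 in CPM was 1.08 times wild-type in spermatocytes and 1.27 times in round spermatids (1 wild-type library each). Up to 60 it was 0.282 and 0.431 times. On the kept exon length the null share of Ago2 was 3.42% ± 0.335 (SD, n = 3) in spermatocytes and 4.12% ± 0.641 (SD, n = 4) in round spermatids, again below every wild-type library. Shares did not separate wild-type spermatocytes from wild-type round spermatids, where Ago4 was 75.7% ± 3.61 (SD, n = 4) and 69.2% ± 4.52 (SD, n = 3) of the total (exact permutation p = 0.114). Within each of the 3 wild-type pairs of consecutive numbers the Ago4 share was lower in round spermatids, at 72.7% against 79.1%, 64.1% against 75.1% and 70.84% against 70.87%, and the Ago1 share was higher, at 9.71% against 5.41%, 15.5% against 5.86% and 12.1% against 10.8%. The last pair was nearly level for Ago4, and these differences within pairs were not tested.

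The total over the 4 genes depended on the length it was divided by. Per kb of full merged exon, in spermatocytes it was 6.07 ± 2.38 CPM per kb in wild-type (SD, n = 4), 4.77 ± 2.13 in heterozygous (SD, n = 3) and 5.98 ± 2.02 in null libraries (SD, n = 3). In round spermatids it was 3.51 ± 0.596 (SD, n = 3), 3.82 ± 0.488 (SD, n = 4) and 3.66 ± 1.16 (SD, n = 4). The genotype groups overlapped in both fractions on this scale. As CPM with no length, the total was 24.5 to 34.4 in wild-type and 37.4 to 50.4 in heterozygous round spermatids, without overlap, and its mean was 51.0 in wild-type and 81.3 in null spermatocytes. With the exon kept by the deletion as the length of Ago3 and Ago4 in null libraries, the total was 8.88 ± 2.83 CPM per kb in null spermatocytes (SD, n = 3), which overlapped wild-type, and 4.67 to 8.13 CPM per kb in null round spermatids, above every wild-type library at 2.88 to 4.07. This sum counts Ago3 and Ago4 transcripts of the deleted chromosome, which per the study's methods carry premature stop codons.

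**Figure D4:**
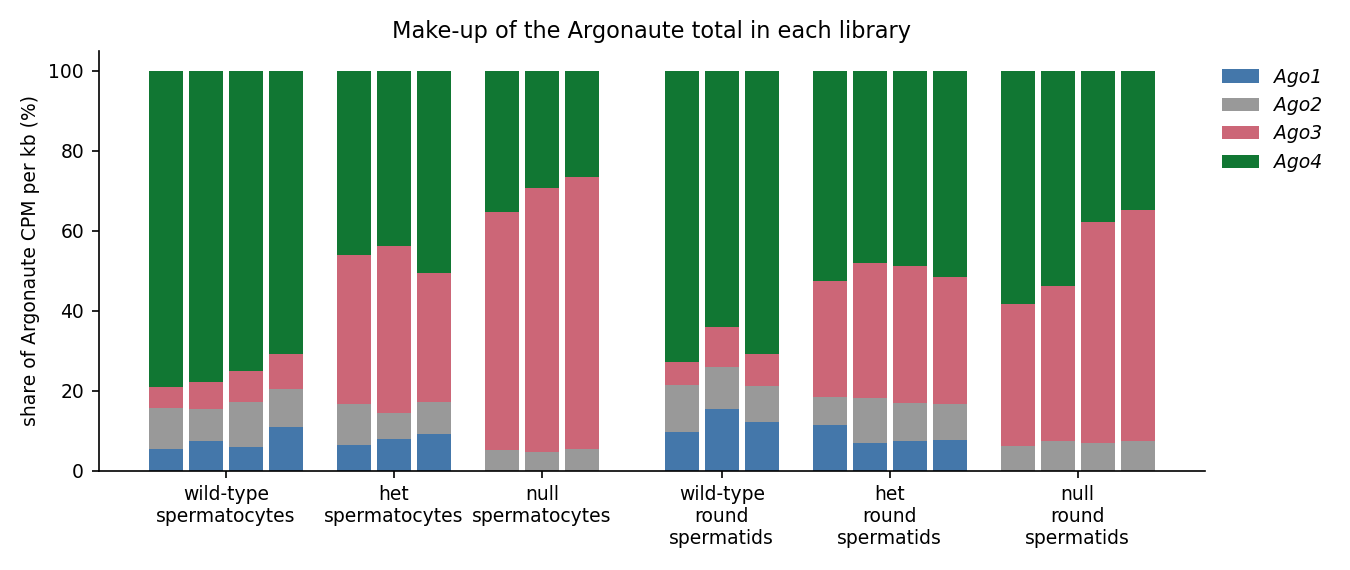
Share of each Argonaute gene in the summed Argonaute CPM per kb (%), 1 bar per library, by genotype and fraction. Ago4 (green) fills 64.1% to 79.1% of the wild-type bars, and Ago3 (red) fills 35.6% to 68.1% of the null bars, both on full exon length.

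The ratio of Ago3 to Ago4 counts, a measure added after the data were seen, needs no scaling between libraries. The deleted chromosome keeps unequal parts of the 2 genes, and the kept lengths alone would multiply the null ratio by 2.23, a log2 of 1.16. In spermatocytes it was 0.163 to 0.292 in wild-type, 1.51 to 2.27 in heterozygous and 4.02 to 6.13 in null libraries. In round spermatids it was 0.190 to 0.374 in wild-type and 1.31 to 1.68 in heterozygous libraries, and 1.46, 1.72, 3.5 and 3.96 in the null libraries. The 3 genotypes did not overlap in spermatocytes, while heterozygous and null round spermatids did. The mean log2 difference between null and wild-type was 4.52 in spermatocytes and 3.18 in round spermatids, each with exact permutation p = 0.0571, the smallest possible.

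Per kb of exon that the deletion leaves, a scale also added after the data were seen, Ago3 and Ago4 stood at like levels in null spermatocytes. Ago4 exons 1 to 15 held 3.33, 5.63 and 3.98 CPM per kb and Ago3 exons 6 to 19 held 2.52, 5.69 and 4.59 CPM per kb in the same 3 libraries, a ratio of Ago3 to Ago4 of 0.756, 1.01 and 1.15. For comparison, full-length Ago4 stood at 2.42 to 6.74 CPM per kb in wild-type spermatocytes, a range that took in all 6 of these values. Full-length Ago3 stood at 0.297 to 0.682 CPM per kb there.

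In null round spermatids Ago4 exons 1 to 15 held 4.07, 3.39, 4.69 and 3.47 CPM per kb and Ago3 exons 6 to 19 held 1.11, 1.10, 3.08 and 2.58 CPM per kb. The ratio was 0.274 and 0.324 in the libraries numbered 53 and 59, and 0.658 and 0.744 in those numbered 83 and 89. Per kept length Ago4 in null round spermatids lay above full-length Ago4 of wild-type, at 2.04 to 2.96 CPM per kb, without overlap, so the direction of the Ago4 difference turned with the length used. In spermatocytes the wild-type and null values overlapped when the kept length was used. Counts per gene do not show which exons the reads came from, so whether transcripts run from Ago4 into Ago3 was not tested. The full length of Ago4 includes a last exon of 3791 bp, 106 bp of it coding, which the deletion removes. How evenly reads covered that exon was not tested. The kept and full lengths are like for like only with even coverage.

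**Figure D5:**
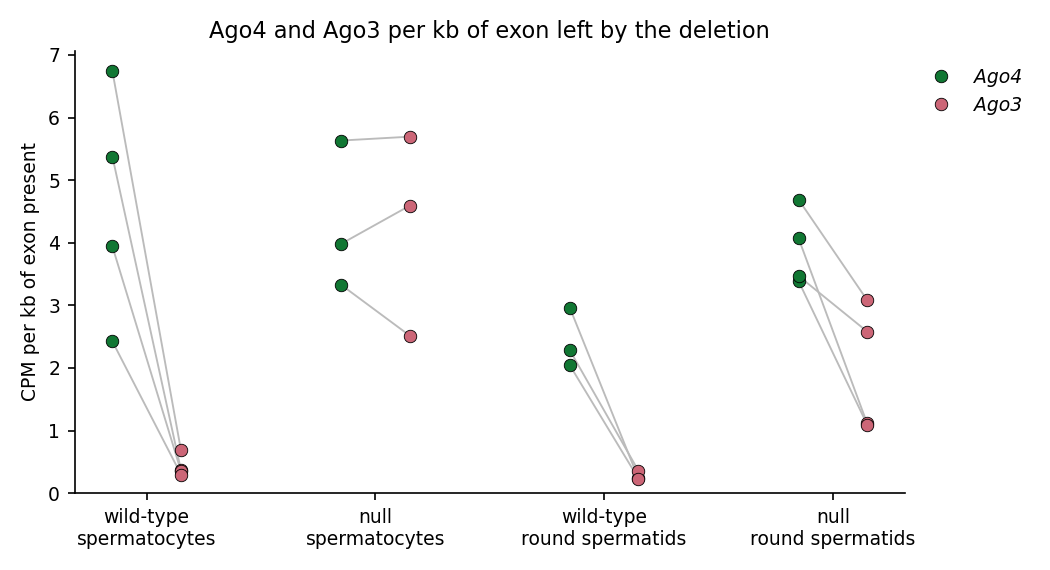
CPM per kb of exon present for Ago4 (green) and Ago3 (red), with a line joining the values of 1 library; wild-type uses all exons and null uses the exons left by the deletion. In the null spermatocyte libraries the pair lies between 2.52 and 5.69 CPM per kb, while wild-type Ago3 lies below 0.7.

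Reads could be shared between members only to a small extent. Of all 31-base words in Ago1 transcripts, 1.72% also occurred in Ago3, and of those in Ago3 0.845% occurred in other Argonaute genes. Ago2 shared 4.49% of its words with the pseudogene Gm6088, which held 0 counts in all 21 libraries. The 4 processed pseudogenes within the tandem locus held at most 4 counts in any library. The 4 nearest protein-coding neighbours, 2 on each side, were not called by edgeR against wild-type in either fraction. The value farthest from 0 among them was -1.16 (SE 0.68, edgeR adjusted p = 0.255), for 5730409E04Rik in null spermatocytes. Tekt2, which codes for a sperm tail protein and lies 6.02 kb past the end of Ago3, stood at a log2 fold change of 0.26 in null spermatocytes (edgeR adjusted p = 0.358) and -0.07 in null round spermatids (edgeR adjusted p = 0.793). Its heterozygous value was 0.50 in spermatocytes, with a 95% interval of 0.10 to 0.90 that lay above 0 (edgeR adjusted p = 0.146), and -0.06 in round spermatids (edgeR adjusted p = 0.918). Clspn, a replication checkpoint gene 23.5 kb before the start of Ago4, stood at 0.48 (edgeR adjusted p = 0.397) and 0.41 (edgeR adjusted p = 0.488) in null cells of the 2 fractions. In heterozygotes it was 0.66 in spermatocytes (edgeR adjusted p = 0.291) and 0.76 in round spermatids (edgeR adjusted p = 0.551), with a 95% interval of 0.09 to 1.42.

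The rest of the small RNA pathway was read from a list of 34 genes for microRNA processing, loading, GW182 scaffolds, effectors, turnover and the PIWI clade. Of these 33 could be tested and none was called by edgeR in null against wild-type cells of either fraction, with 8 at an unadjusted p under 0.05 in spermatocytes and 7 in round spermatids, against 30.4% and 19.3% of all tested genes. DESeq2 called 3 of the 33 in null spermatocytes, Tnrc6b higher and the PIWI genes Piwil1 and Piwil2 lower (log2 fold changes of 0.67, -1.40 and -1.28), against 15.6% of tested genes, and 0 in null round spermatids. The median log2 fold change of the list was -0.28 in null spermatocytes and -0.08 in null round spermatids. The smallest p in spermatocytes belonged to Tnrc6b, a GW182 scaffold (0.65, SE 0.17, edgeR adjusted p = 0.0599), and Ptges3, the HSP90 co-chaperone p23 (-0.49, SE 0.14, edgeR adjusted p = 0.0656). In round spermatids they belonged to Ptges3 (-0.41, SE 0.12, edgeR adjusted p = 0.114) and Xpo5, the exporter of microRNA precursors (-0.37, SE 0.12, edgeR adjusted p = 0.123). Between the fractions in wild-type cells Tnrc6b was called higher in round spermatids by a log2 of 1.36 (SE 0.16, edgeR adjusted p = 0.000167), and 4 genes were called lower, Hsp90aa1, Cnot7, Ddx6 and Piwil1, by log2 fold changes of -1.11, -0.75, -1.07 and -1.58. These 5 were named after their values were seen, and 5 of 33 stood against the 24.2% of all tested genes.

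The genes whose pattern over the 21 libraries was most like each member were found by Pearson's r of log2 CPM among 16064 genes. The libraries share genotype and fraction groups, so r is a description of these libraries. For Ago4 they were Eloa (r = 0.976), a subunit of the elongin transcription factor, Piwil2 (r = 0.972), a PIWI protein of the piRNA pathway, and Gpat2 (r = 0.966). For Ago2 they were Khsrp (r = 0.946), an RNA-binding protein, Mdc1 (r = 0.944), a mediator of the DNA damage response that also acts on the silenced sex chromosomes, and Radil (r = 0.935). For Ago1 they were Tmem39b (r = 0.857), Tbc1d22b (r = 0.840) and Trim62 (r = 0.813). For Ago3 they were Tyr (r = 0.919), Gm10093 (r = 0.878) and Gm2996 (r = 0.876). Among the members themselves Ago2 and Ago4 were the most alike (r = 0.867) and Ago1 and Ago3 the least (r = -0.63).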

How the data were processed

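Raw gene counts of 24 bulk RNA-seq libraries were deposited by the authors as 1 table. Per the study's methods and processing notes, strand-specific poly(A) libraries were sequenced as paired reads, trimmed with Trim Galore and aligned to mm10 with STAR, whose GeneCounts mode made the deposited counts. It keeps reads that align to 1 place. The strand column and annotation release are not given in the sources used here. All rows named a gene.

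Groups and replicate numbers came from the labels. Genes that reached 10 counts in 3 or more libraries of a fit were tested in edgeR 4.0.16 by quasi-likelihood (R 4.3.3, TMM, all genotypes of a fraction in 1 fit, or both fractions for comparisons between them), with Benjamini-Hochberg adjustment. Called genes had an adjusted p below 0.05 and a log2 fold change beyond 0.5 in either direction. DESeq2 1.42.0, which the study used, was an alternative. Adjusted p-values are over all genes tested. Because libraries are pools of mice, p-values measure the spread between pools. Shares and ratios were compared by two-sided exact permutation tests (scipy 1.17.1).

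Levels are edgeR CPM with TMM scaling, and merged exon lengths came from GENCODE M21, in which all 55536 identifiers were found. A count of 0 was given a floor of 3 counts per library, which covers counting error only. The scripts were tested on simulated data. Among 37 pairs of libraries of 1 group, chi-square per gene was 9.75 to 179, so none was a repeat.

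The 4 members, a list of 34 pathway genes, 2 neighbours on each side and the marker lists were chosen with earlier results of these data known. Pathway genes were named where called in null against wild-type, or else the 2 with the smallest p in each fraction. The 3 genes most like each member were those with the highest Pearson r of log2 CPM (prior count 2) among genes of mean CPM of at least 1. Alternatives changed the tool, scaling, filter, libraries, replicate block and length, and each library was left out in turn. The split by library number, the kept exon length, the totals on it and the Ago3 to Ago4 count ratio were added after seeing the data. A table of Argonaute proteins and an Ago2 promoter were not used here.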

Additional observations from a re-analysis of the deposited data

Results flagged for a closer look

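In wild-type spermatocytes the Ago1 level of replicate 4, 4.27 CPM, stood apart from the other 3 libraries at 2.99 to 3.05 CPM. In heterozygous round spermatids the Ago1 share of the Argonaute total in replicate 1, 11.5%, stood apart from the other 3 libraries at 6.81% to 7.56%. There were 22 groups of 4 libraries examined for such a distance, and chance alone flags about 1 in 20.

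The libraries that the labels mark as outliers were in none of the main comparisons, and their ratios of Ago3 to Ago4 counts were looked at as data outside the main measurement. The ratio was 0.313 in wild-type spermatocyte replicate 3 and 0.519 in wild-type round spermatid replicate 3, each above the highest ratio of the wild-type libraries used, 0.292 and 0.374. It was 1.32 in heterozygous spermatocyte replicate 4, above those wild-type libraries and below the 1.51 to 2.27 of the other heterozygous libraries. Ago1 made up 21.9% and 23.1% of the Argonaute total in the 2 wild-type outliers, against 5.41% to 15.5% in the 7 wild-type libraries used.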

How the results depend on the processing

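Directions of Ago1, Ago3 and Ago4 in null against wild-type cells held in every refit, while adjusted p moved across the threshold for Ago3 and Ago4; per kb of kept exon, Ago4 in null round spermatids turned to above wild-type (3.91 against 2.43 CPM per kb). Low counts of Ago1 and Ago2 and groups of 3 or 4 pools limit the precision. The cause of the changes below was not tested.

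With DESeq2 the log2 fold change of Ago4 in null cells was called at -1.34 in spermatocytes and -0.61 in round spermatids, and that of Ago3 in heterozygotes at 2.16 and 2.15. Without the filter on low counts edgeR called, in spermatocytes, Ago2 (-0.96) and Ago4 (-1.33) in null and Ago3 (2.13) and Ago4 (-1.06) in heterozygous cells, and Ago3 (2.19) in heterozygous round spermatids. With only the 2 compared groups in the fit, Ago4 in null spermatocytes (-1.31) and Ago3 in heterozygous round spermatids (2.16) were called and Ago3 in null round spermatids (2.68, edgeR adjusted p = 0.0585) was not. With library number as a term, chosen after seeing the data, Ago3 in null spermatocytes (3.12) was not called. Added back, the outlier libraries ended the call of Ago4 between wild-type fractions (-0.85) and turned the differences between heterozygous fractions of Ago1 (0.0203) and Ago2 (0.12). Consecutive library numbers as pairs gave a call for Ago2 between wild-type fractions (-0.83).

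The counts of genes called moved more. For null against wild-type spermatocytes, 8 genes became 3026 with DESeq2, 2623 without the filter, 1303 with 2 groups and 4 with library number. For heterozygous spermatocytes, 5 became 1228, 1481, 2 with 2 groups and 3 with the outlier libraries. For null round spermatids, 10 became 702 with DESeq2, 20 with its size factors, 238 without the filter and 26 with the outlier libraries, and for heterozygous round spermatids 4 became 7 with DESeq2 and 10 without the filter. Between wild-type fractions 4934 became 0 with the outlier libraries. By raw counts the Ago3 share in null spermatocytes rose by 65 percentage points, and the difference of the Ago1 share in heterozygous spermatocytes turned to -1.43. Per kb of full exon, with the outlier libraries added back, that difference of the Ago1 share turned to -3.11.

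Same-numbered replicates deviated together, at a correlation above 0.1, in 4 of 17 pairs. All 4 were pairs of spermatocyte libraries, at r from 0.143 to 0.168, while the highest r in round spermatids was 0.0869. The replicate numbers therefore do not pair the genotypes in round spermatids, and in spermatocytes this was not settled. With the replicate block the counts were 687 genes in null and 2 in heterozygous spermatocytes, Ago1 in heterozygous spermatocytes turned to 0.23, and Ago3 in null cells stayed called at 3.65 and 2.45. The block changed no other direction or call of an Argonaute gene.

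With each library left out in turn, log2 fold changes in null cells ranged from 2.97 to 3.60 for Ago3, -1.59 to -1.07 for Ago4 and from -1.20 to -0.58 for Ago2 in spermatocytes, and from 2.38 to 2.95 for Ago3 in round spermatids. In heterozygous spermatocytes the ranges were -0.38 to 0.11 for Ago1, 1.89 to 2.55 for Ago3 and -1.23 to -0.72 for Ago4, and in heterozygous round spermatids -0.30 to 0.16 for Ago2. Ago2 in null against heterozygous spermatocytes ranged from -0.78 to 0.00300. Between fractions the ranges were -0.14 to 0.23 for Ago1 and -1.14 to -0.68 for Ago4 in wild-type, -0.47 to 0.0359 for Ago1, -0.51 to 0.28 for Ago2 and -0.51 to 0.0217 for Ago4 in heterozygotes, and -0.30 to 0.10 for Ago4 in null cells. Genes called ranged from 4 to 4526 in null spermatocytes, the highest without wild-type replicate 5, from 3 to 2966 in heterozygous spermatocytes, the highest also without that library, and from 5 to 9 in null round spermatids. In percentage points, the share difference ranged from -0.24 to 1.57 for Ago1 in heterozygous spermatocytes, and between wild-type fractions from -0.11 to 1.27 for Ago2 and -0.21 to 1.91 for Ago3.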

Other observations

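Tyr, Gm10093 and Gm2996 were picked as the 3 genes most like Ago3, which itself separated wild-type from the other genotypes, so their own separation is a description and no test. For Tyr and Gm10093 the heterozygous and null libraries lay above wild-type without overlap in both fractions. Gm2996 did the same in round spermatids, while in spermatocytes its wild-type libraries, at 1.56 to 2.63 CPM, overlapped the heterozygous ones at 2.56 to 3.60 CPM and lay below the null ones at 4.75 to 5.28 CPM. Tyr, the pigment enzyme tyrosinase, held 0 counts in all 7 wild-type libraries, 13 to 58 counts in heterozygous and 58 to 103 counts in null spermatocytes, and 15 to 37 and 41 to 66 counts in heterozygous and null round spermatids. Gm10093 stood at 1.94 ± 0.547 CPM in wild-type (SD, n = 4), 14.5 ± 1.70 in heterozygous (SD, n = 3) and 27.0 ± 2.63 in null spermatocytes (SD, n = 3). In round spermatids it stood at 1.63 ± 0.152 (SD, n = 3), 12.6 ± 1.17 (SD, n = 4) and 23.5 ± 3.52 CPM (SD, n = 4). The targeting vectors are named 5′Hprt and 3′Hprt in the methods, and Hprt, named here after its values were seen, stood at 2.11 ± 0.839 CPM in wild-type, 5.85 ± 0.407 in heterozygous and 5.80 ± 1.43 in null spermatocytes (SD, n = 4, 3 and 3), with heterozygous and null alike in mean. Round spermatids stood at 2.94 ± 0.207, 3.97 ± 1.07 and 5.98 ± 0.871 CPM (SD, n = 3, 4 and 4). Whether any of these reads came from the targeted allele was not tested. Hprt is an X-linked gene, and the study reports more X and Y transcripts in null cells of both fractions. The part of that change in the Hprt values was not tested either.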
